A study of Homo sapiens with 11 samples.

Results

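The transcripts of 8 genes that start, carry out or hold back caspase-driven cell death were followed in SK-N-BE(2)-C cells, a human neuroblastoma line, after treatment with the histone deacetylase (HDAC) inhibitor vorinostat (SAHA). The genes were the caspase gene CASP2, the caspase activator APAF1, the inhibitors of apoptosis XIAP and BIRC2, their mitochondrial antagonists DIABLO and HTRA2, and the anti-apoptotic genes AVEN and FAIM. AVEN and FAIM were chosen by their lower level at 24 h in these arrays, so their values at that time are given as a description, with no test. The other genes were given by name. The 8 genes stood among 20046 named on the Illumina HT-12 v4 BeadChips, and 7 of them were among the 10323 genes bright enough to be tested. Every probe annotated to a member was taken, which gave 19 probes, of which 15 were tested.

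Of 11 arrays, 3 held RNA of cells given the solvent DMSO for 24 h and 3 that of cells given 500 nM vorinostat for 24 h. A further 3 arrays were of DMSO and 2 of vorinostat at 6 d, with 500 nM again. The 4 groups share 1 cell line and carry no further agent or genetic change. The methods describe the replicates of the shorter treatment as independent experiments. The p-values measure the spread between the arrays of a group, and for 6 d no source used here says that the arrays came from separate cultures. At 24 h DMSO and vorinostat were hybridised to separate BeadChips, and chip and treatment cannot be told apart there, whereas both 6 d groups lay on 1 chip. Levels at 24 h and at 6 d were likewise measured on different chips, so that chip and time cannot be told apart.

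The cell line showed the transcripts of its label, since all 7 noradrenergic neuroblastoma markers with a probe, MYCN among them, were detected on each of the 11 arrays. All 3 endothelial markers, 2 of 4 leukocyte markers and 2 of 4 epithelial markers with a probe were detected on none. Of the leukocyte markers CD68 was detected on every array and PTPRC on 1, and of the epithelial markers KRT19 on every array and EPCAM on 7. Of 6 mesenchymal or Schwann-like markers VIM was detected on all 11 arrays, S100B on none and the other 4 on 1 to 4 arrays. The mean log2 level of this list was 5.32 to 5.48 with DMSO and 5.72 to 5.83 with vorinostat at 24 h, without overlap, and 5.34 to 5.52 against 5.28 to 5.43 at 6 d. At 6 d the leukocyte list (4.83 to 4.99 against 5.04 and 5.05) and the noradrenergic list (10.43 to 10.60 against 10.77 and 10.89) lay higher with vorinostat without overlap. The part of these markers in the results was not tested. The mean of the non-normalized intensities of an array was 272 to 302 with DMSO and 401 to 413 with vorinostat at 24 h, and 323 to 383 with DMSO against 283 and 338 with vorinostat at 6 d. Brightness thus moved with treatment, upwards at 24 h, while at 6 d the groups overlapped and the lowest value was a vorinostat array. In RNA of whole cultures, fewer cells with a transcript and less of it per cell cannot be told apart.

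Caspases are proteases that lie dormant in healthy cells. In the mitochondrial pathway cytochrome c leaves the mitochondria and binds APAF1, which assembles into the apoptosome and activates caspase 9. Inhibitors of apoptosis (IAPs) restrain the active enzymes, and DIABLO (Smac) and HTRA2 (Omi), once released from mitochondria, bind the IAPs and lift this restraint. Caspase 2 is activated on a platform of its own, the PIDDosome. AVEN binds APAF1 and counteracts caspase activation, and FAIM, the Fas apoptotic inhibitory molecule, protects cells, neurons included, from death receptor signals.

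AVEN and FAIM had a lower level with vorinostat than with DMSO at 24 h and a higher one at 6 d. The levels are log2 intensities after background correction and quantile normalization, and a difference of 1 is a doubling. AVEN (probe ILMN_1710216) stood at 7.67, 7.71 and 7.56 on the DMSO arrays of 24 h and at 6.45, 5.95 and 6.17 on the vorinostat arrays. All vorinostat arrays lay below all DMSO arrays, by a mean of 1.45 on the log2 scale (SE 0.17, 2.74-fold). At 6 d AVEN stood at 6.29, 6.10 and 6.38 with DMSO and at 6.995 and 7.11 with vorinostat. Here both vorinostat arrays lay above the 3 DMSO arrays, and AVEN rose by 0.80 on the log2 scale (SE 0.19, 95% confidence interval 0.39 to 1.21, limma adjusted p = 0.0151).

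FAIM has 5 probes on the arrays, and the brightest (ILMN_1690101) gave 9.60, 9.41 and 9.66 with DMSO and 8.12, 7.86 and 8.30 with vorinostat at 24 h. The groups did not overlap, and the mean difference was -1.46 (SE 0.14, 2.76-fold lower with vorinostat). At 6 d the same probe gave 8.55, 8.27 and 8.72 with DMSO and 9.40 and 9.23 with vorinostat, again without overlap but in the opposite direction. FAIM rose at 6 d by 0.80 on the log2 scale (SE 0.16, 95% confidence interval 0.47 to 1.13, adjusted p = 0.00496). In the ordering of all 10323 tested genes by their 24 h difference, FAIM took position 8 and AVEN position 9 from the lowest end, the contrast by which both were picked.

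**Figure D1:**
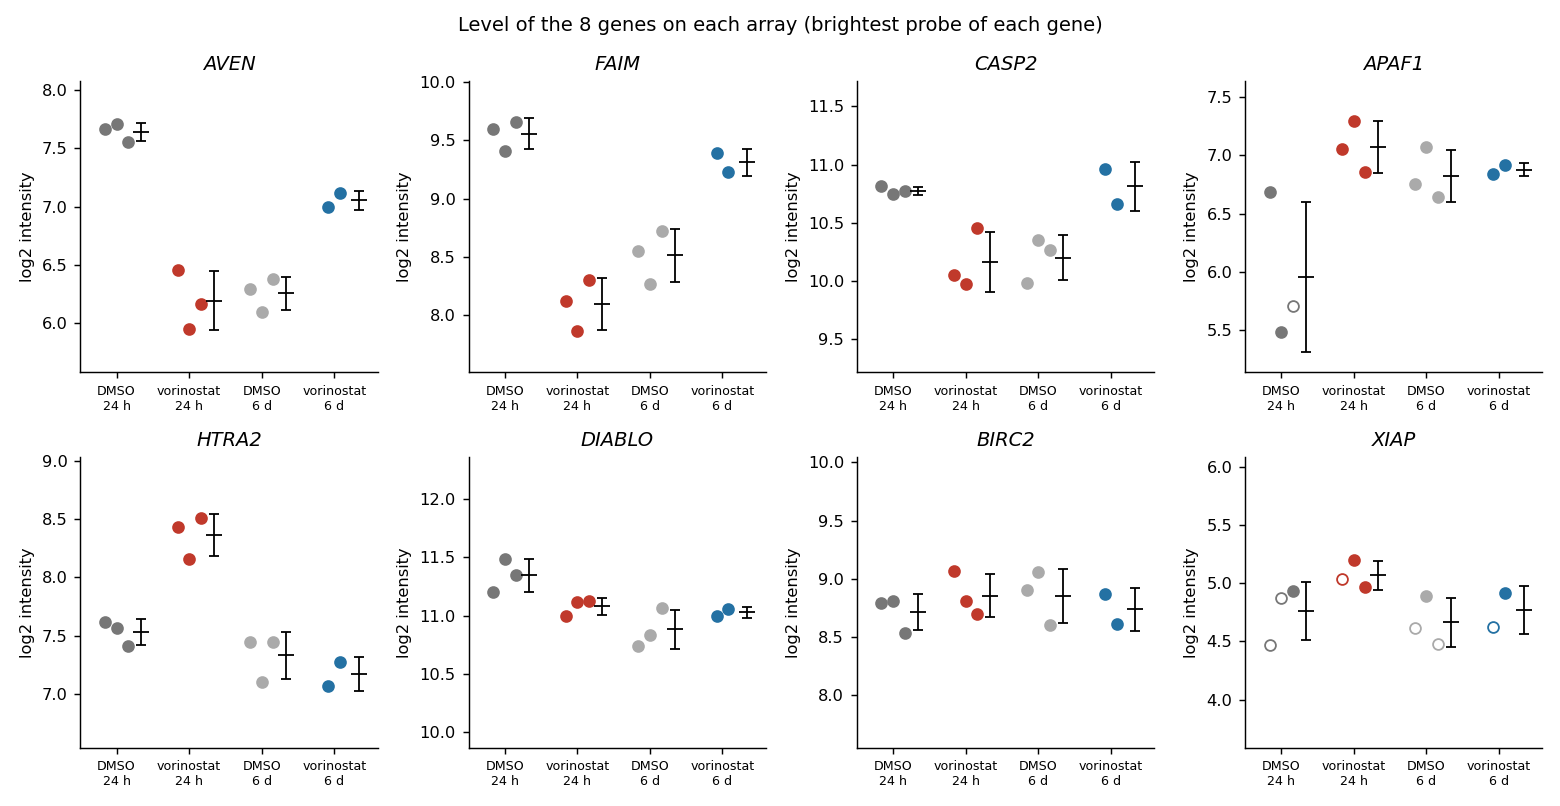
Log2 intensity (y axis) of each of the 8 genes on every array, by group (x axis). Points are arrays, open points arrays that did not detect the probe, and bars the mean with its SD; each panel spans the same height. AVEN and FAIM lie lower with vorinostat at 24 h and higher with vorinostat at 6 d, whereas the XIAP probe lies near background, from 4.47 to 5.20.

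The level of both genes with DMSO was not the same at the 2 times. AVEN averaged 7.65 (SD 0.08, n = 3) with DMSO at 24 h, 7.05 (SD 0.08, n = 2) with vorinostat at 6 d, 6.26 (SD 0.14, n = 3) with DMSO at 6 d and 6.19 (SD 0.25, n = 3) with vorinostat at 24 h. In that order each group's arrays lay clear of the next group's, except for DMSO at 6 d and vorinostat at 24 h, which overlapped. FAIM had the same order, at 9.56 (SD 0.13), 9.31 (SD 0.12), 8.51 (SD 0.23) and 8.10 (SD 0.22), and here too only the lowest neighbours overlapped. The higher level of AVEN and FAIM with vorinostat at 6 d therefore stood against a DMSO level that was itself below that of 24 h, measured on another chip.

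The other FAIM probes were dimmer. The second (ILMN_2351548) gave 6.88, 7.16 and 7.46 with DMSO and 5.89, 5.81 and 6.08 with vorinostat at 24 h, a mean difference of -1.24 (SE 0.19) without overlap. At 6 d this probe was 6.58, 6.91 and 6.57 with DMSO and 7.04 and 7.21 with vorinostat, a difference of 0.44 (SE 0.21) that did not pass the threshold (adjusted p = 0.202). The third probe (ILMN_1723268) entered the test only through its detection on all 3 DMSO arrays of 24 h, and averaged 5.56 there against 4.84 with vorinostat. Its 6 d difference of 0.52 had an SE of 0.30 and an adjusted p of 0.298. The last 2 FAIM probes were detected on 2 arrays and on none of the 11, and were not tested. The 6 d difference of the third probe came from vorinostat replicate 2, at 5.85. Replicate 3 of that probe, at 4.94 and not detected, lay within the DMSO arrays at 4.74 to 4.97. Over single left-out arrays the difference ranged from 0.07 to 0.97. The second FAIM probe thus lay higher with vorinostat at 6 d without overlap, the third did so on 1 array, and the brightest alone passed the test.

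Before normalization the intensities of the AVEN probe and of the brightest FAIM probe differed at 24 h in the same direction, on vorinostat arrays that were the brighter ones. These are values of the contrast by which both genes were picked. The AVEN probe read 217 to 261 with DMSO and 167 to 202 with vorinostat, and the FAIM probe 595 to 712 and 401 to 490. At 6 d the non-normalized ranges overlapped, with 156 to 186 against 172 to 210 for AVEN and 402 to 556 against 546 to 657 for the brightest FAIM probe. When scaled to the medians of all probes, dim ones included, the median tested probe stood at 0.65 at 24 h and at -0.30 at 6 d, and AVEN and FAIM at -0.76 and -0.74 and at 0.41 and 0.46. The 6 d values of AVEN and FAIM did not pass under that scaling (adjusted p = 0.314 and 0.174).

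CASP2, which encodes the initiator caspase of the PIDDosome, was the only member tested at both times that passed at both, and like AVEN and FAIM it had opposite signs. Its brightest probe (ILMN_2410540) gave 10.81, 10.74 and 10.77 with DMSO and 10.06, 9.97 and 10.46 with vorinostat at 24 h. CASP2 fell by 0.61 on the log2 scale (SE 0.13, 95% confidence interval -0.89 to -0.34, adjusted p = 0.00251), with all vorinostat arrays below all DMSO arrays, although under scaling to the medians of all probes it stood at 0.03, which is 0.61 below the median probe there. Before normalization this CASP2 probe read 1335 to 1524 with DMSO and 1412 to 1884 with vorinostat, so that the lower level at 24 h appears only relative to the other probes of the array.

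At 6 d the CASP2 probe gave 9.98, 10.35 and 10.27 with DMSO and 10.96 and 10.66 with vorinostat. CASP2 rose by 0.61 (SE 0.15, 95% confidence interval 0.31 to 0.92, adjusted p = 0.0137), and here the non-normalized ranges of 1201 to 1388 and 1505 to 1688 did not overlap either. The second CASP2 probe (ILMN_1736568) went the same way, with a difference of -0.63 (SE 0.15, adjusted p = 0.00564) at 24 h, which was 0.10 under scaling to the medians of all probes, and of 0.83 (SE 0.17, adjusted p = 0.00589) at 6 d. The third CASP2 probe (ILMN_2296057), detected on 9 of 11 arrays, differed by -0.09 (95% confidence interval -0.63 to 0.45) and -0.00 (-0.61 to 0.61). The change of CASP2 at 6 d differed from that at 24 h by 1.23 (SE 0.19, adjusted p = 0.000235). With DMSO the brightest CASP2 probe averaged 10.78 at 24 h and 10.20 at 6 d, without overlap and on different chips. With vorinostat it averaged 10.16 at 24 h, which overlapped DMSO of 6 d, and 10.81 at 6 d, which overlapped DMSO of 24 h. Scaled to the medians of all probes, the 6 d difference of the brightest CASP2 probe was 0.37 (adjusted p = 0.213), that of the second probe 0.45 (adjusted p = 0.242) and the difference between the times 0.34 (adjusted p = 0.263), none past the threshold, where the median probe stood at -0.30 and, for the difference between the times, at -0.95.

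**Figure D2:**
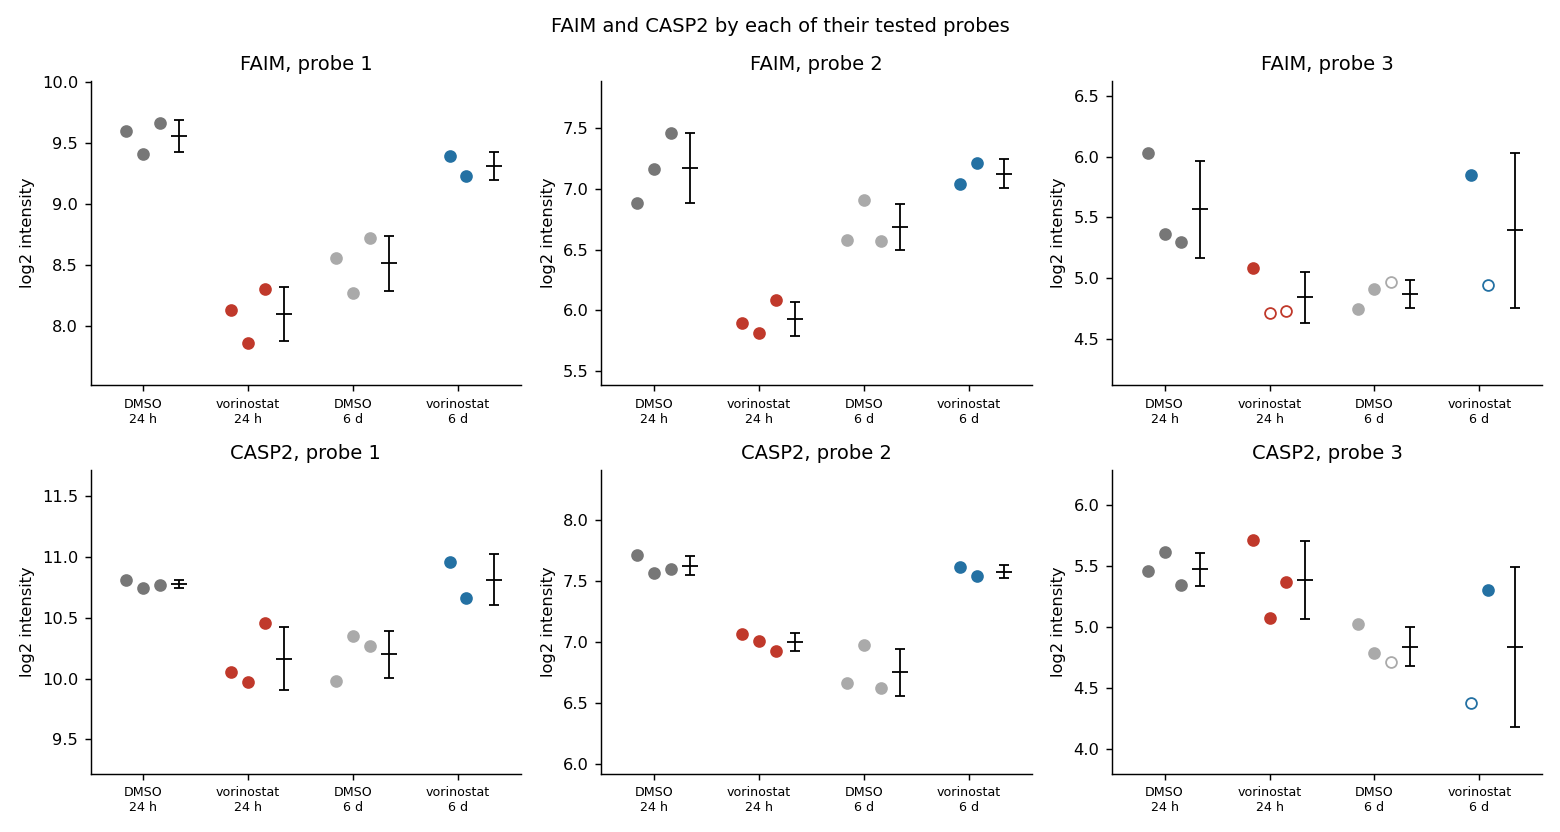
Log2 intensity (y axis) of the 3 tested probes of FAIM (top) and of CASP2 (bottom) on each array, by group (x axis). Points are arrays, open points arrays that did not detect the probe, and bars the mean with its SD. The first and second probe of each gene run alike over the groups; the third probes are dim, between 4.37 and 6.03. The 24 h difference of the CASP2 probes turns sign under scaling to the medians of all probes.

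Since AVEN, FAIM and CASP2 were the members called at 6 d, the sequences around their transcription starts are shown, as RefSeq lists them on GRCh38.p14 (250 bases before and 50 after the start, 5′ to 3′ on the strand of the gene). AVEN has 1 such window, chr15:34039155-34039454 on the minus strand, and of FAIM and CASP2 the first of 2 is printed, chr3:138608521-138608820 and chr7:143288101-143288400, both on the plus strand. Capitals mark GGGCGG, the core of the GC box, or its reverse complement CCGCCC.
AVEN: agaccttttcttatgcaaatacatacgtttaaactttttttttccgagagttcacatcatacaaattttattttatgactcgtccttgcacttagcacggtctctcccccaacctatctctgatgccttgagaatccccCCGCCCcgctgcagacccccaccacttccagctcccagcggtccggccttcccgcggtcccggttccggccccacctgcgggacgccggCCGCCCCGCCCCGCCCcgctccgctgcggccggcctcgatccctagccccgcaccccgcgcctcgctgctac
FAIM: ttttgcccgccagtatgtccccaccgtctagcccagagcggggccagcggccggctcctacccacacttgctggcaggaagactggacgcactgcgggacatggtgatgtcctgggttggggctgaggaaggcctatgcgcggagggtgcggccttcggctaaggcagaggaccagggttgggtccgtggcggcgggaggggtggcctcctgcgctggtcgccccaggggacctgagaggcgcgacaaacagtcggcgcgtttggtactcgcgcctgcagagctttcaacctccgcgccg
CASP2: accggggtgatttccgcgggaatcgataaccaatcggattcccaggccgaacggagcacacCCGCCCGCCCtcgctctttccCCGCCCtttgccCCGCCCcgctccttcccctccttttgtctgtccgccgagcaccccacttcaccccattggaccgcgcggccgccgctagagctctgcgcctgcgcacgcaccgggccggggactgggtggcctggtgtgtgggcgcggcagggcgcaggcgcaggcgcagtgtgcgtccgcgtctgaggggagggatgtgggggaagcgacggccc
AVEN and CASP2 held 4 matches each to the GC box core, counted with overlaps, and FAIM held 0. Of 35116 windows of this length in the table, 45.0% held at least 1 match. CCAAT was matched at 2 places in the CASP2 window, against 34.6% of all windows with a match, and at 0 in the others. No match to CACGTG (7.26% of windows), TGTTTAC (3.42%) or TATAAA (11.5%) was found in the 3 windows on either strand. G and C made up 61.3% of the AVEN window, 68.0% of the FAIM window and 71.3% of the CASP2 window.

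APAF1, the scaffold of the apoptosome, rose at 24 h. Its tested probe (ILMN_1659463) gave 6.68, 5.48 and 5.70 with DMSO, the last of these not detected, and 7.05, 7.30 and 6.85 with vorinostat. The groups did not overlap, but DMSO replicate 1 lay far above the other DMSO arrays. The difference was 1.11 (SE 0.25, 95% confidence interval 0.58 to 1.65, adjusted p = 0.00401). Over single left-out arrays of 24 h it ranged from 0.88, without DMSO replicate 2, to 1.48, without DMSO replicate 1. At 6 d APAF1 stood at 6.75, 7.07 and 6.64 with DMSO and at 6.84 and 6.92 with vorinostat, a difference of 0.06 (95% confidence interval -0.54 to 0.65, adjusted p = 0.929). With DMSO it averaged 5.95 at 24 h and 6.82 at 6 d, on different chips. With vorinostat it averaged 7.07 at 24 h and 6.88 at 6 d, so DMSO of 24 h was the low group. The change at 6 d was 1.06 lower than at 24 h (log2 -1.06, SE 0.38, adjusted p = 0.0451), a call that was lost in 11 of 22 alternatives. A second APAF1 probe (ILMN_2344798) was detected on 1 of 11 arrays and not tested.

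HTRA2, the mitochondrial serine protease that antagonises IAPs, rose at 24 h by its brightest probe (ILMN_1747204). This probe gave 7.62, 7.57 and 7.41 with DMSO and 8.43, 8.16 and 8.51 with vorinostat, without overlap. The difference was 0.83 (SE 0.15, 95% confidence interval 0.51 to 1.15, adjusted p = 0.000834). HTRA2 stands in the heatmap of autophagy genes that the study selected as changed on these same arrays, so its value at the shorter time is not independent evidence. At 6 d the probe gave 7.45, 7.10 and 7.45 with DMSO and 7.07 and 7.28 with vorinostat, a difference of -0.16 (SE 0.17, adjusted p = 0.602). The change at 6 d was lower than at 24 h by 0.99 on the log2 scale (-0.99, SE 0.23, adjusted p = 0.00395).

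The second HTRA2 probe (ILMN_1785574) did not show the 24 h difference of the first. It gave 6.93, 7.13 and 7.03 with DMSO and 7.29, 7.07 and 7.15 with vorinostat, a difference of 0.14 (95% confidence interval -0.33 to 0.60, adjusted p = 0.687). At 6 d its 2 vorinostat arrays lay far apart, at 7.501 and 6.46, on either side of the DMSO arrays at 6.51 to 6.96. Scaled to the medians of all probes, this probe stood at 0.88 at 24 h and passed the threshold (adjusted p = 0.00107), where the median probe stood at 0.65, and with array brightness as a covariate it gave 1.22 and did not pass. In the main fit the change of this probe at 6 d differed from that at 24 h by 0.14 (SE 0.33, adjusted p = 0.782), opposite in sign to the first probe. With quantile normalization the 24 h rise of HTRA2 and its difference between the times rest on 1 of its 2 probes.

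DIABLO, which binds IAPs through its processed end, lay lower with vorinostat at 24 h without passing the threshold. Its brightest probe (ILMN_2310589) gave 11.20, 11.49 and 11.35 with DMSO and 10.997, 11.12 and 11.13 with vorinostat, which did not overlap. The difference was -0.27 (SE 0.10, adjusted p = 0.0611). When the 24 h arrays were paired by their replicate number, as a block in the fit, the same difference had an adjusted p of 0.0209. It also passed with arrays scaled by the medians of the detected probes (-0.38, adjusted p = 0.0220), in the authors' normalized table (adjusted p = 0.0368), in the 24 h arrays alone (adjusted p = 0.0359) and without DMSO replicate 1 (adjusted p = 0.0450). Scaled to the medians of all probes, DIABLO stood at 0.36, 0.29 below the median probe. Before normalization the brightest DIABLO probe read 1716 to 2446 with DMSO and 2744 to 2950 with vorinostat at 24 h, higher without overlap. The second probe read 377 to 568 and 569 to 672, and the third 173 to 212 and 239 to 304. The lower level of DIABLO at 24 h thus appears only relative to the other probes of the array.

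At 6 d DIABLO gave 10.74, 10.84 and 11.07 with DMSO and 10.997 and 11.06 with vorinostat, a difference of 0.15 (95% confidence interval -0.09 to 0.39, adjusted p = 0.461). The 6 d and 24 h differences of DIABLO differed by 0.41 (SE 0.15, adjusted p = 0.0499), with 0.0522 in the blocked fit and a loss of the call in 16 of 23 alternatives, besides scaling to the medians of all probes, which turned the sign (-0.43). The second DIABLO probe (ILMN_2332990) gave -0.33 (SE 0.13, adjusted p = 0.0802, and 0.0349 with the block) at 24 h and 0.28 (SE 0.15, adjusted p = 0.258) at 6 d. The third (ILMN_1665335) gave -0.10 (SE 0.17) and 0.31 (SE 0.19), neither past the threshold. Between the times the second probe differed by 0.61 (SE 0.20, adjusted p = 0.0302) and the third by 0.41 (SE 0.25, adjusted p = 0.247). Scaled to the medians of all probes, the second probe stood at 0.40 at 24 h and at -0.08 at 6 d.

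Of the IAPs, BIRC2 (cIAP1, a ubiquitin ligase) was well detected and did not pass the test at either time. Its brightest probe (ILMN_2182704) gave 8.80, 8.81 and 8.53 with DMSO and 9.06, 8.81 and 8.70 with vorinostat at 24 h, which overlapped. At 6 d it gave 8.90, 9.06 and 8.60 with DMSO and 8.87 and 8.61 with vorinostat. The differences were 0.14 (95% confidence interval -0.16 to 0.44, adjusted p = 0.493) and -0.12 (-0.45 to 0.22, adjusted p = 0.705), intervals that exclude a doubling in either direction. Scaled to the medians of all probes, BIRC2 stood at 0.89 at 24 h and passed the threshold (adjusted p = 0.000238), 0.24 above the median probe. The second BIRC2 probe (ILMN_1768194) differed by -0.09 (SE 0.18) and 0.00 (SE 0.21), with overlap at both times.

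XIAP, the IAP that blocks caspases directly, was represented by 1 probe (ILMN_1815361) near background. It gave 4.47, 4.87 and 4.93 with DMSO and 5.03, 5.20 and 4.97 with vorinostat at 24 h, and 4.62, 4.89 and 4.48 with DMSO and 4.62 and 4.92 with vorinostat at 6 d. The probe was detected on 5 of 11 arrays, on all arrays of no group, and was not tested. A difference of XIAP was thus not measurable on these arrays.

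**Figure D3:**
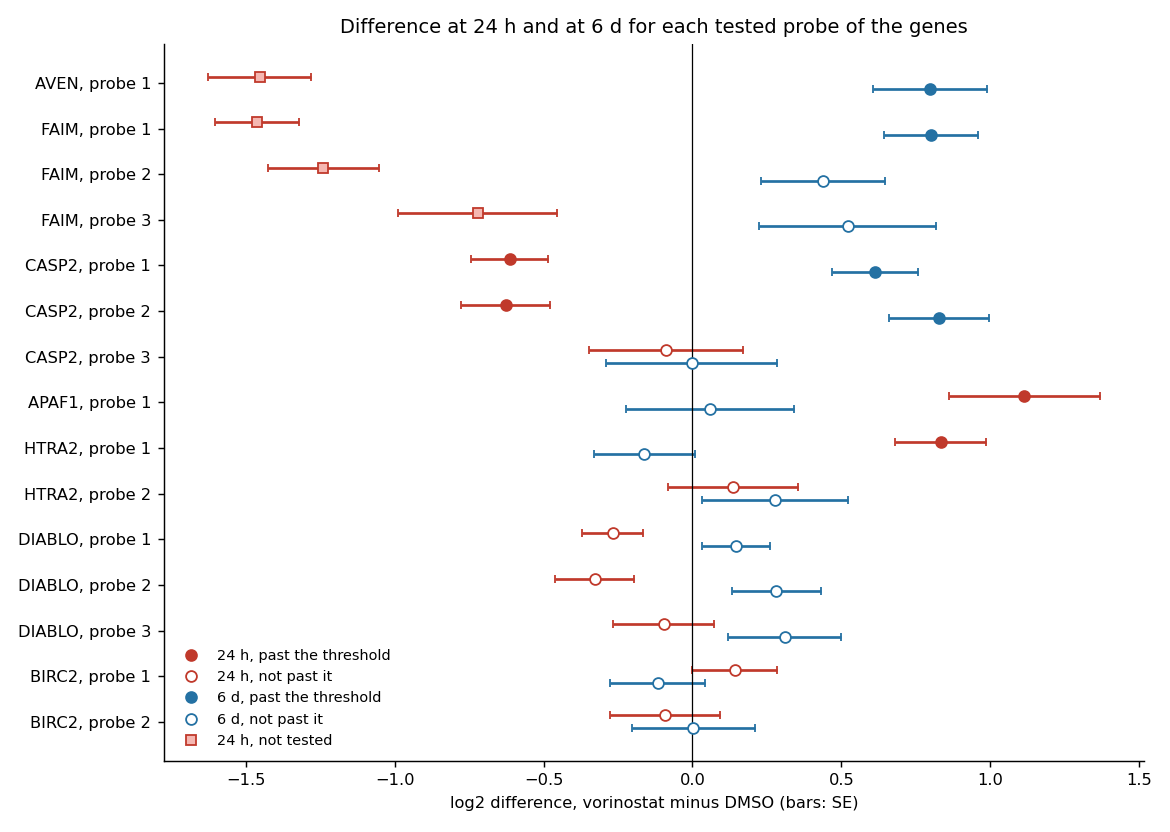
Log2 difference, vorinostat minus DMSO (x axis), at 24 h (red) and 6 d (blue) for each of the 15 tested probes (y axis), with its SE as bars. Filled points passed an adjusted p of 0.05, open points did not, and pale squares are the 24 h values of AVEN and FAIM, which were not tested. CASP2 probes 1 and 2 lie below 0 at 24 h, a sign that turns under scaling to the medians of all probes, and above 0 at 6 d, as do AVEN and FAIM.

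Taking the brightest probe of each gene, 3 of the 5 tested members other than AVEN and FAIM were called at 24 h, against 27.0% of all tested genes. APAF1 and HTRA2, the second of which the study had selected on these arrays, were higher (2 of 5, against 16.2% of all genes) and CASP2 lower (1 of 5, against 10.8%). The arrays of both groups did not overlap for 4 of the 5, DIABLO being the fourth, against 46.4% of all genes. At 6 d 3 of the 7 tested members were called, against 10.0% of all genes. All 3 were higher with vorinostat, against 3.64% of all genes, and 0 of 7 were lower by limma, against 6.4%, with none lower at an unadjusted p under 0.05 either. The groups of 6 d did not overlap for the same 3 members, against 38.6% of all genes. Of these members AVEN and FAIM were picked for their lower level at 24 h, so the 6 d shares over all genes are no matched background for them. The share among genes that were lower at 24 h was not computed. The difference between the times was called for 4 of 5 members, DIABLO, HTRA2, APAF1 and CASP2, against 30.1% of all genes. With so few members these counts describe the genes and say nothing of the group as such.

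The calls at 24 h of HTRA2, APAF1 and CASP2 passed the threshold without any single array of 24 h. Those at 6 d depended on single arrays. Without vorinostat replicate 2, AVEN, FAIM and CASP2 had adjusted p of 0.0799, 0.0802 and 0.191, without vorinostat replicate 3 AVEN had 0.0859, and without DMSO replicate 1 CASP2 had 0.0698. The 6 d differences themselves ranged over single left-out arrays from 0.72 to 0.86 for AVEN, from 0.68 to 0.90 for FAIM and from 0.47 to 0.76 for CASP2. In a fit of the 6 d arrays alone AVEN had an adjusted p of 0.0606, and CASP2 had 0.0569 with no filter on dim probes and 0.0596 with no trend in the prior variance. The methods describe an analysis of variance for autophagy genes at 24 h, on values normalized in BeadStudio. Here the plain test of the methods was run on the values of the main fit, over all its probes, and adjusted in the same way. By it HTRA2 passed at 24 h, while APAF1 (0.133) and CASP2 (0.0692) at 24 h and all 3 genes at 6 d (0.262 to 0.338) did not. At 6 d the sign of AVEN, FAIM and CASP2 was thus the same without any single array, while the adjusted p moved across the threshold.

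The level of AVEN, FAIM and CASP2 ran against the brightness of the arrays. Over the 11 arrays, which fall into 4 groups on 3 chips, Pearson's r between the level and the log2 mean intensity was -0.83 for AVEN, -0.92 for FAIM and -0.86 for CASP2, as a description. For HTRA2 and APAF1 it was 0.66 and 0.56, and for DIABLO and BIRC2 -0.45 and 0.33. With the brightness as a covariate in the fit, the 24 h difference was -1.43 for AVEN, -1.09 for FAIM and -0.08 for CASP2, and 0.81 for HTRA2 and 1.54 for APAF1. The 6 d differences in that fit were 0.79 for AVEN (adjusted p = 0.145), 0.65 for FAIM (adjusted p = 0.134) and 0.40 for CASP2 (adjusted p = 0.279). No tested member passed the threshold at either time in that fit, in which the brightness ranges of the 24 h groups do not overlap. By the brightest probe, the 24 h difference of AVEN and HTRA2 was thus nearly the same with the covariate. That of APAF1 was larger, that of FAIM smaller and that of CASP2 near 0. The second FAIM probe moved the other way, from -1.24 to -1.61, and the third stood at 0.57. The second CASP2 probe stood at -0.55.

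**Figure D4:**
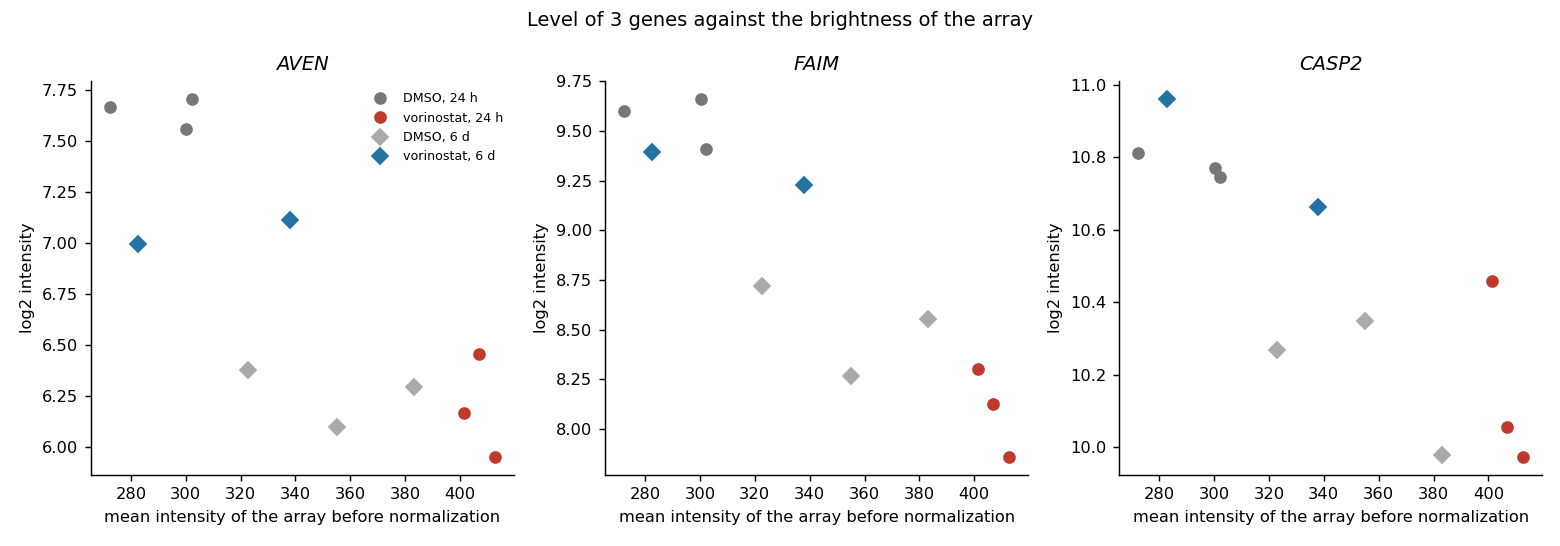
Log2 intensity (y axis) of AVEN, FAIM and CASP2 against the mean intensity of the array before normalization (x axis); each point is 1 array. The DMSO arrays of 24 h (272 to 302) and the vorinostat arrays of 6 d (283 and 338) carry the high levels. Pearson's r with the log2 mean intensity is -0.83 for AVEN, -0.92 for FAIM and -0.86 for CASP2, as a description. The CASP2 difference at 24 h turns sign under scaling to the medians of all probes.

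Over the 11 arrays the gene whose level ran most like that of AVEN was TRA2A, a splicing regulator (r = 0.99), followed by SNRNP40, a spliceosome component (r = 0.98), and POLE4, a DNA polymerase epsilon subunit (r = 0.98). For FAIM these were NUDT16L1 (r = 0.98), UFC1, the conjugating enzyme of the ubiquitin-like modifier UFM1 (r = 0.98), and PBDC1 (r = 0.97). AVEN and FAIM correlated with each other at 0.93, which placed FAIM 42nd among the genes most like AVEN and AVEN 49th among those most like FAIM. Both were picked for their lower level with vorinostat on the 24 h arrays. These arrays enter this r, so a high r between AVEN and FAIM was partly fixed in advance. CASP2 came 213th for FAIM, with r = 0.88, and 488th for AVEN, with r = 0.81. APAF1 ran opposite to both, with r = -0.74 to AVEN and -0.69 to FAIM. The arrays share groups, chips and brightness, and these values carry no test.

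The rest of the cell death machinery was represented by 53 further genes in 7 lists, of which 33 were tested. At 24 h 5 of them rose (16.2% of all genes did) and 3 fell (10.8% of all genes), and 25 did not pass the threshold, with a median difference of 0.06 against 0.04 over all genes. At 6 d 3 rose and 0 fell by limma, where at an unadjusted p under 0.05 there were 6 higher and 5 lower (3.64% and 6.4% of all genes were called higher and lower), with a median of 0.01 against -0.02 over all genes. The executioner and initiator caspases were hardly measured, since 2 of 10 other caspases were tested, CASP4 and CASP6, and neither passed at either time.

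Among the 7 lists that of mitochondrial proteins held the largest number of calls. At 24 h SEPTIN4, whose ARTS product antagonises XIAP, rose from an undetected level with DMSO to 6.03 with vorinostat, which is at least 2.36-fold higher (adjusted p = 0.00152). SEPTIN4 entered the test through the groups in which it was detected. CYCS, the gene of cytochrome c, rose by 0.96 (SE 0.20, adjusted p = 0.00202), from 6.09 with DMSO (SD 0.33, n = 3) to 7.05 with vorinostat (SD 0.07, n = 3). ENDOG, a mitochondrial nuclease, fell at 24 h by 0.85 (SE 0.14, adjusted p = 0.000436) and rose at 6 d by 0.73 (SE 0.16, adjusted p = 0.00908). ENDOG thus had the same 2 signs as AVEN, FAIM and CASP2, although the rise at 6 d was lost without vorinostat replicate 2 (adjusted p = 0.116). Scaled to the medians of all probes, ENDOG stood at -0.14 (adjusted p = 0.552) and 0.40 (adjusted p = 0.234), and neither passed. The other 2 tested genes of this list did not pass at either time.

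Of the apoptosome and PIDDosome genes besides APAF1 and CASP2, CYCS and CRADD were tested. CRADD, the adaptor RAIDD that recruits caspase 2, rose at 24 h by 0.38 (SE 0.12, adjusted p = 0.0299), a call lost in 5 of the 6 fits without 1 array of 24 h, with adjusted p up to 0.105. Among the IAPs BIRC5 (survivin) rose at 6 d by 0.51 (SE 0.15, adjusted p = 0.0453), which was lost in 4 of the 5 fits without 1 array of 6 d, with adjusted p up to 0.206, and under scaling to the medians of all probes (0.16, adjusted p = 0.688). A second BIRC5 probe gave -0.60 at 24 h (adjusted p = 0.0452) and 0.69 at 6 d (adjusted p = 0.0770). Of 6 tested death receptors and adaptors TNFRSF21 (death receptor 6) rose at 24 h by 0.63 (SE 0.11, adjusted p = 0.000746), and 5 did not pass.

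In the TMBIM family, to which FAIM2 belongs despite its name, FAIM2 itself gave 0.18 (SE 0.20, adjusted p = 0.537) at 24 h and -0.53 (SE 0.22, adjusted p = 0.142) at 6 d. TMBIM4 fell at 24 h by 0.43 (SE 0.12, adjusted p = 0.0133), a sign that turned under scaling to the medians of all probes (0.31), and rose at 6 d by 0.70 (SE 0.13, adjusted p = 0.00378), which did not pass under that scaling (0.35, adjusted p = 0.331). The 24 h call of TMBIM4 was lost without DMSO replicate 3 (adjusted p = 0.0558) and without vorinostat replicate 2 (0.0601). GHITM fell at 24 h by 0.25 (SE 0.09, adjusted p = 0.0468), which likewise turned under that scaling (0.33) and was lost in 5 of the 6 fits without 1 array. Of 11 tested caspase substrates DFFA, the inhibitor of the caspase-activated DNase, rose at 24 h by 0.64 (SE 0.18, adjusted p = 0.0164), and its 2 other tested probes gave 0.28 and -0.00 and did not pass. The call of DFFA was lost without DMSO replicate 2 (adjusted p = 0.0725) and without vorinostat replicate 2 (0.0524) or 3 (0.0555).

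**Figure D5:**
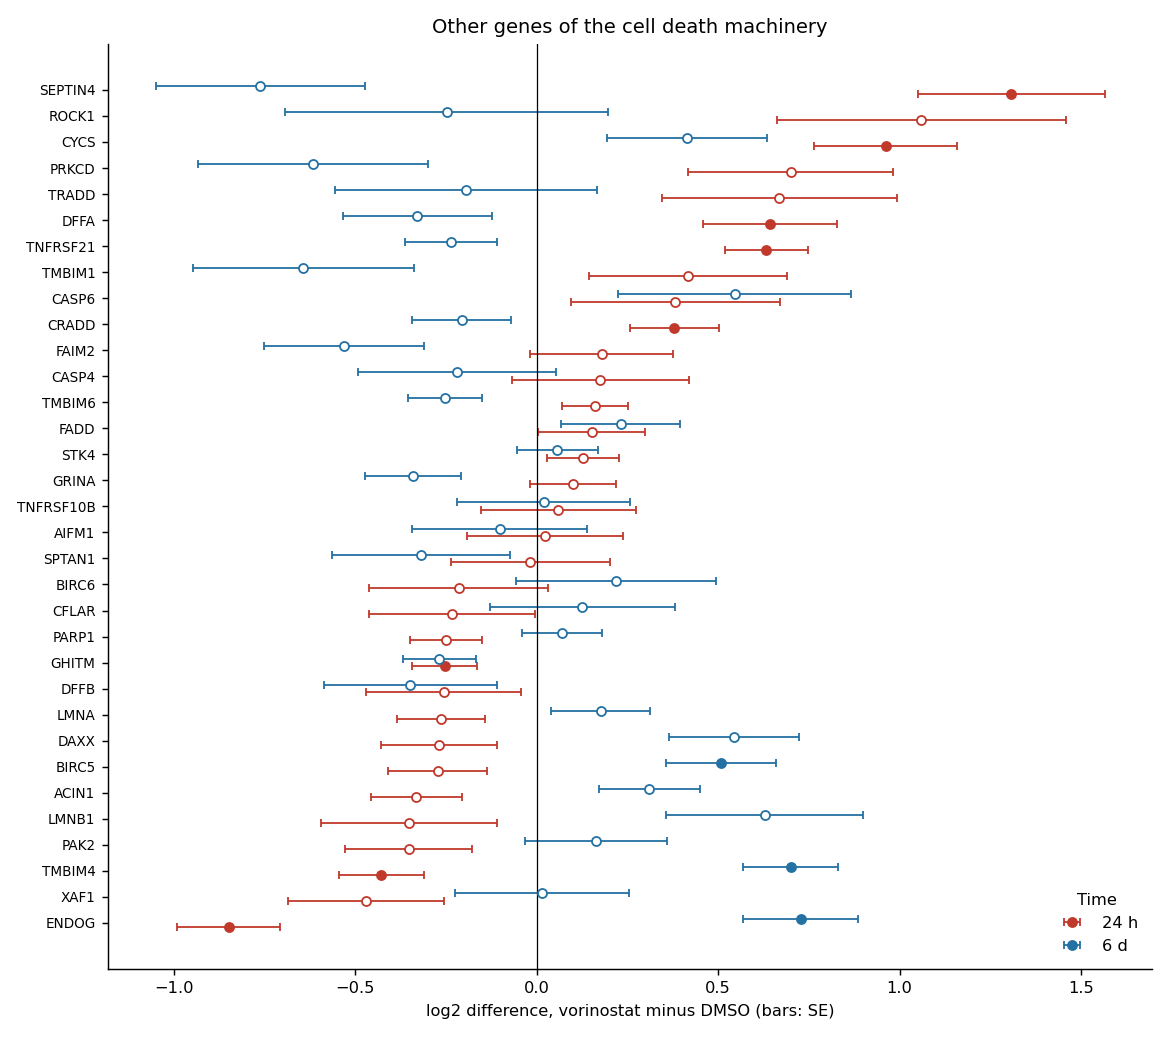
Log2 difference, vorinostat minus DMSO (x axis), at 24 h (red) and 6 d (blue) for the 33 other tested genes of the cell death lists (y axis, ordered by the 24 h value), with the SE as bars. Filled points passed an adjusted p of 0.05: SEPTIN4, CYCS, DFFA, TNFRSF21, CRADD, GHITM, TMBIM4 and ENDOG at 24 h and BIRC5, TMBIM4 and ENDOG at 6 d. The 24 h signs of TMBIM4 and GHITM turn under scaling to the medians of all probes.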

How the data were processed

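RNA was hybridised to Illumina HT-12 v4 BeadChips, with groups and replicate numbers taken from the sample titles. The authors deposited linear, non-normalized probe intensities, each beside a detection p-value. A second deposited table holds the intensities after normalization in BeadStudio, by a method not given in the sources used here. The tables carry different probe identifiers, and the 48107 probes were paired by their values over the arrays (100% of pairs mutual, 2.66% after shuffling). The platform annotation names 1 gene for 30113 probes. The deposited detection p-value is small for probes far below the dim bulk too, so a probe was called detected at p under 0.01 only where its intensity lay above the background centre. Each array detected 15947 to 18696 probes, and precision is limited by how few arrays there are. The 11 arrays hold no vorinostat array of 6 d numbered 1, and the descriptions of 2 arrays of 6 d give another number than their titles.

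Intensities were corrected by normexp (offset 16), quantile normalized and put on the log2 scale (limma 3.58.1, R 4.3.3). The 13553 probes with 1 gene that were detected throughout at least 1 group entered 1 limma fit of 4 groups, 11 arrays, with p-values adjusted by Benjamini-Hochberg over all of them and a threshold of 0.05. The brightest tested probe stands for a gene. Members and lists were chosen with earlier results of these data known. Named are all members, up to 3 called genes per list and time with the largest difference, and the 3 genes most like AVEN and FAIM. At 24 h same-numbered DMSO and vorinostat arrays deviated together (r 0.109, 0.195 and 0.246 over genes, and -0.207 to 0.0297 for differently numbered ones). The numbers were therefore taken as pairs in the blocked fit, while the main fit does not use them. What made these arrays deviate together was not tested. The pairs of 6 d had r of 0.0846 and 0.100, and DMSO replicate 1 of 6 d, which has no partner, drops out of the blocked fit. Alternatives covered scaling, background, offset, filter, probe choice, arrays fitted, trend, the block, left-out arrays, the plain test of the methods and, added after seeing the data, scaling to the medians of all probes and array brightness as a covariate. The steps were tested on simulated intensities. Promoter windows are RefSeq's. Figures used Matplotlib 3.10.9.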

Additional observations from a re-analysis of the deposited data

Results flagged for a closer look

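The difference between the times, 6 d minus 24 h on the log2 scale, passed the test for 4 of 5 tested members (30.1% of all genes passed): CASP2 (1.23), HTRA2 (-0.99), APAF1 (-1.06) and DIABLO (0.41). That of DIABLO passed narrowly (adjusted p = 0.0499), was lost in 16 of 23 alternatives, the replicate block (0.0522) among them, and turned sign under scaling to the medians of all probes (-0.43). That of CASP2 did not pass under this scaling either (0.34, adjusted p = 0.263). That of HTRA2 passed by its brightest probe alone, and the second gave 0.14 (adjusted p = 0.782). For AVEN (2.25) and FAIM (2.26) the difference was not tested, since both were picked by the 24 h contrast; here every vorinostat array lay below every DMSO array at 24 h and above at 6 d. The times were measured on different BeadChips, and with array brightness as a covariate none of the tested differences passed.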

How the results depend on the processing

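Over 53 results and 1059 values under other settings, 859 kept their direction and their side of the threshold or moved by less than the spread. With the arrays scaled to the medians of all probes, 8916 probes were called at 24 h against 3516, 8725 for the difference between the times against 3954, and 0 members at 6 d against 3. The share of calls that were higher at 24 h was 61.0% with quantiles, 40.1% with medians of the probes detected on all arrays and 99.1% with medians of all probes, and at 6 d 39.4%, 48.8% and 3.33%. Brightness as a covariate left 8 calls at 24 h, 142 at 6 d, 0 for the difference by limma (1201 at an unadjusted p under 0.05) and 0 members at either time. In 6 d arrays alone it left 0 calls (1103 unadjusted), where the same arrays without it gave 592, and 0 members. The plain test of the methods, run on the values of the main fit, gave 4887 probes at 24 h and 1939 at 6 d at an unadjusted p under 0.05. After Benjamini-Hochberg (the methods state a correction for multiple testing) it gave 2245 and 2, with 1 (HTRA2) and 0 members. At 6 d 654 probes were called with no filter, against 1249. Leaving out single arrays gave 2198 to 3233 calls at 24 h, 273 to 1614 at 6 d and 0 to 3 members at 6 d. The fewest calls came without vorinostat replicate 2 at either time. At 6 d there were 621 without DMSO replicate 1 and 813 without vorinostat replicate 3.

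The 24 h difference of AVEN was -0.76 with medians of all probes, -0.85 with no background correction and -1.13 with an offset of 50, and that of FAIM -0.74 and -1.23 under the first 2 of these and -1.09 with the brightness covariate. With medians of all probes the following turned sign. At 24 h DIABLO gave 0.36 (other probes 0.40 and 0.66), CASP2 0.033 (other probes 0.10 and 0.24), the second BIRC2 probe 0.64, TMBIM4 0.31 and GHITM 0.33. At 6 d APAF1 gave -0.31, DIABLO -0.071 (other probes -0.076 and -0.065), the second HTRA2 probe -0.12 and the second BIRC2 probe -0.38, and the difference between the times for DIABLO was -0.43. With the brightness covariate APAF1 at 6 d gave -0.11, the second HTRA2 probe -0.15 and -0.29 in 6 d arrays alone, the third CASP2 probe 0.37 and 0.47, and the third FAIM probe at 24 h 0.57. In the authors' table APAF1 at 6 d gave -0.032, the second BIRC2 probe 0.093 and -0.12 at 24 h and 6 d, and at 24 h the third DIABLO probe 0.013 and the third CASP2 probe 0.028. Other sign changes concerned probes near 0. The second BIRC2 probe at 6 d gave -0.035 with medians of the detected probes, -0.0023 with no background correction and -0.00074 with an offset of 50. The third CASP2 probe at 6 d gave 0.29 with medians, 0.028 with background taken near its centre, 0.016 with an offset of 50 and 0.090 with the replicate block. Leaving out arrays gave ranges across 0 for BIRC2 at 6 d (-0.25 to 0.012), its second probe (-0.13 to 0.15), APAF1 at 6 d (-0.032 to 0.18), the third DIABLO probe at 24 h (-0.24 to 0.044), the second HTRA2 probe at 6 d (-0.24 to 0.80) and the third CASP2 probe (-0.25 to 0.067 and -0.47 to 0.46). The causes were not tested.

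The replicate block gave 4146, 1065 and 3975 calls. Among the members it changed the calls of DIABLO and its second probe given above (adjusted p = 0.0209 at 24 h) and no other. Groups of 2 and 3 arrays limit the 6 d calls, and probes near background, as for XIAP, limit what could be tested.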
